A study of Saccharomyces cerevisiae with 12 samples.

Results

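The 10 genes described here make up the core of hexose uptake and glucose sensing in budding yeast, Saccharomyces cerevisiae. They are the hexose transporter genes HXT1 (YHR094C), HXT2 (YMR011W), HXT3 (YDR345C), HXT4 (YHR092C), HXT5 (YHR096C), HXT6 (YDR343C) and HXT7 (YDR342C), the glucose sensor genes SNF3 (YDL194W) and RGT2 (YDL138W), and MTH1 (YDR277C), a regulator below the sensors. All 10 were taken by their identifiers from a table of read counts with 7127 features, and all 10 passed the filter on low counts that left 6157 genes for testing. The table holds RNA sequencing libraries from 12 cultures in 4 groups of 3 biological replicates. Wild type carried an empty vector, and its 6 cultures are listed under the separate names BY29034 to BY29039. The second strain, called NTT1 here, has the construct PH-NTT1 integrated in the genome, a BY29034 background and the reporter QUEEN, which is a fluorescent sensor of ATP. NTT1 is a nucleotide transporter of the microsporidian parasite Encephalitozoon cuniculi, and it lets a cell take up ATP from outside. Because the strains differ in the reporter as well as in the transporter, effects of these cannot be told apart, and the promoter driving NTT1 is not given in the sources used here. Each strain was left without ATP or received 5 mM extracellular ATP for 1 h, in complete synthetic medium at mid-log phase. The carbon source of the medium is likewise not given in the sources used here.

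Yeast takes up glucose by facilitated diffusion through Hxt proteins whose affinities differ. HXT1 and HXT3 encode low-affinity carriers used when glucose is plentiful, HXT2 and HXT4 carriers induced when glucose is low, and HXT6 and HXT7 high-affinity carriers that abundant glucose represses, whereas HXT5 is best known from slowly growing cells. Snf3 and Rgt2 resemble transporters but act as sensors, Snf3 for low and Rgt2 for high glucose. Without a glucose signal, Mth1 and its paralog Std1 keep the repressor Rgt1 on HXT promoters. With glucose, Mth1 is degraded and HXT genes are released, while the repressors Mig1 and Mig2 switch off genes of the low-glucose programme, MTH1 and SNF3 among them.

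The transporter genes lie partly in clusters. In the R64 assembly, the build named in the submitters' processing notes, HXT7 (chrIV:1154216-1155928), HXT6 (chrIV:1159608-1161320) and HXT3 (chrIV:1162957-1164660) follow each other on the minus strand of chromosome IV. HXT4 (chrVIII:287081-288811), HXT1 (chrVIII:290913-292625) and HXT5 (chrVIII:294669-296447) do the same on chromosome VIII, and HXT2 (chrXIII:288079-289704) stands apart on the plus strand of chromosome XIII. SNF3 (chrIV:111580-114234) and RGT2 (chrIV:213351-215642) are on the plus strand and MTH1 (chrIV:1014401-1015702) on the minus strand of chromosome IV. Each of the 10 has 1 coding exon, and no annotated gene overlaps these coding sequences. Neighbours in the chromosome VIII cluster did not behave alike: HXT1, between HXT4 and HXT5, was not among the genes that fell with ATP, and HXT4 was. In the chromosome IV cluster all 3 genes fell averaged over strains, by log2 fold changes of -1.43 for HXT7, -1.40 for HXT6 and -0.38 for HXT3.

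HXT6 and HXT7 are near copies. Their coding sequences of 1713 bases are 99.8% identical and differ at 3 bases near the end, written from HXT7 to HXT6 as C1632T, A1666G and C1677T, with positions counted from the A of the start codon. The stretch of coding bases 1612 to 1697, which holds all 3, is shown for each gene from R64 (HXT7 chrIV:1154232-1154317 and HXT6 chrIV:1159624-1159709, minus strand, 5′ to 3′), with the differing bases in capitals, because reads can be told apart by these bases and by the flanks alone.
HXT7: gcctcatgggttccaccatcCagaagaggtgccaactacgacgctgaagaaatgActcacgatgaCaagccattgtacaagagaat
HXT6: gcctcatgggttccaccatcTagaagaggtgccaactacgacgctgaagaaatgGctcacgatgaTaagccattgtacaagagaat
Of all stretches of 100 bases in either coding sequence, 5.08% occur once in the genome. For the other 8 genes this share was 96.4% to 100%. The next most alike pairs were HXT1 with HXT3 at 82.0%, HXT4 with HXT7 at 81.7% and HXT4 with HXT6 at 81.6%. How the authors' counting treated reads that match more than 1 place is not given in the sources used here, so the split between HXT6 and HXT7 and their level beside other genes are uncertain. Their sum was therefore tested as well.

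Upstream sequence was searched for the letters of known regulator sites over 600 bases before each start codon, on both strands. The Rgt1 motif CGGANNA occurred at least once before 48.0% of 5999 protein-coding genes. It had 7 matches before HXT3, 4 before HXT1, 3 each before HXT2 and HXT5, 2 each before HXT4 and MTH1, 1 before HXT6, and 0 before HXT7, SNF3 and RGT2. As many as 4 occurred before 1.02% of genes and as many as 7 before 0.0167%. The windows of 150 bases richest in it are shown for the low-affinity pair and for HXT2, the gene with the largest ATP effect of the 10, with matches in capitals (HXT3 chrIV:1164963-1165112, minus strand; HXT1 chrVIII:292989-293138, minus strand; HXT2 chrXIII:287594-287743, plus strand).
HXT3: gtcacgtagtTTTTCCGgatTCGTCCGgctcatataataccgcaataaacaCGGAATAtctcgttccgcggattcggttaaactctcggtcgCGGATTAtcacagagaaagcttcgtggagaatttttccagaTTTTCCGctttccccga
HXT1: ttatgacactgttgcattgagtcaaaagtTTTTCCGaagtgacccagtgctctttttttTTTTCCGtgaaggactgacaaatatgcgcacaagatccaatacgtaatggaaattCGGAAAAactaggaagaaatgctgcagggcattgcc
HXT2: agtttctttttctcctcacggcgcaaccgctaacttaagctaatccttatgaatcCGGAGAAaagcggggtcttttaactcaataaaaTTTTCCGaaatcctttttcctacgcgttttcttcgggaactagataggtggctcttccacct

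The core of the Mig1 site, searched as the letters GGGG with GC, GT, CC or CT before them, occurred at least once before 27.8% of the 5999 genes. It had 4 matches before HXT4, 3 before HXT2, 2 each before HXT1, HXT3, HXT7, SNF3 and MTH1, and 0 before HXT5 and RGT2. As many as 2 occurred before 5.23% of genes, 3 before 0.967% and 4 before 0.2%. The stress response element CCCCT, searched in the same windows, had 3 matches before HXT7, 2 each before HXT5 and HXT6, 1 each before HXT1, HXT3, HXT4, RGT2 and MTH1, and 0 before HXT2 and SNF3, and 39.7% of genes had at least 1. No match of any of these motifs overlapped one of another in the 10 windows. Windows are shown for 3 genes that fell with ATP, Mig1 core matches in capitals (HXT4 chrVIII:288952-289101, minus strand; SNF3 chrIV:111231-111380, plus strand; MTH1 chrIV:1016075-1016224, minus strand).
HXT4: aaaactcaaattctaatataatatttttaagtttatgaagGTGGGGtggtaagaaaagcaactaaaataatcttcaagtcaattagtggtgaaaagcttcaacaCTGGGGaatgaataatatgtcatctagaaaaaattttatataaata
SNF3: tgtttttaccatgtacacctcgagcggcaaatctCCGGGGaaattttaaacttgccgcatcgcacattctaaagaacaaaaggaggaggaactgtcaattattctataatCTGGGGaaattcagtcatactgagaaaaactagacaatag
MTH1: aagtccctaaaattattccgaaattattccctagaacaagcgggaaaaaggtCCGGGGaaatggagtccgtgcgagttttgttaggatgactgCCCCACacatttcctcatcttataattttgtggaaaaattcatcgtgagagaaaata
A match is a run of letters and not a shown binding site.

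Library totals ran from 14845855 to 20714804 counts, and counts of the 10 genes from 324 to 82864 per library, with the lowest for SNF3, RGT2 and HXT5, whose counting error is the largest of the 10. Pearson's r of log2 normalised counts across genes was 0.977 to 0.989 between untreated wild-type libraries and at least 0.992 between libraries of any other group. Chi-square per degree of freedom between untreated wild-type replicates was 65.7 for 1 and 2, 76.3 for 1 and 3 and 145 for 2 and 3. Replicate 3 was the lowest of them for HXT2, HXT4, HXT5, HXT6, HXT7, SNF3, RGT2 and MTH1 and the highest for HXT1. Results are given with and without it where it matters. Leaving out replicate 3 raised the share of genes with adjusted p under 0.05 for ATP in wild type from 12.7% to 33.7%. Leaving out replicate 1 or 2 lowered that share to 1.44% or 3.06%. All levels below are read counts scaled to library size with TMM factors (CPM), and RPKM is the same per kilobase of coding length. In each comparison of groups, log2 fold changes (with SE) come from 1 edgeR fit of all 12 libraries, and a gene is called at a Benjamini-Hochberg adjusted p under 0.05 over 6157 genes.

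With extracellular ATP, HXT4, HXT6, HXT7 and SNF3 fell in each strain, and HXT2 and MTH1 passed the threshold in wild type and not in NTT1. HXT1, HXT3, HXT5 and RGT2 passed in neither strain alone. Averaged over the strains, 7 of the 10 genes fell past the threshold and 0 rose: HXT2 by 3.47-fold, HXT7 by 2.69-fold, HXT6 by 2.64-fold, MTH1 by 2.26-fold, HXT4 by 2.23-fold, SNF3 by 1.70-fold and HXT3 by 1.30-fold. Over all genes tested, 24.2% were called in this comparison, 12.4% lower and 11.7% higher. The median log2 fold change was -0.96 over the 10 genes and -0.00066 over all. In wild type alone 6 of the 10 fell (12.7% of all genes called, 7.31% lower and 5.42% higher), although a fit of the 2 wild-type groups by themselves called 0 of them and 0.311% of all genes. In NTT1 alone 4 of the 10 fell (4.47% called, 1.49% lower and 2.97% higher). All 7 calls of the averaged comparison were kept whichever of the 12 libraries was left out. The calls within a strain were less steady: in wild type 0 of the 10 were called without untreated replicate 1, treated replicate 1 or treated replicate 3, and 1 without untreated replicate 2 or treated replicate 2. The share called over all genes fell with them, to between 1.44% and 3.2%. In NTT1, 0 were called without untreated replicate 1 or 2 or treated replicate 1 or 3, where 1.12% to 2.02% of all genes were called. It was 2 without treated wild-type replicate 1 (3.07% of all genes) and 7 without untreated wild-type replicate 3 (16.7%). These are bulk cultures, so a change in every cell and a change in the share of cells that express a gene cannot be told apart.

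**Figure D1:**
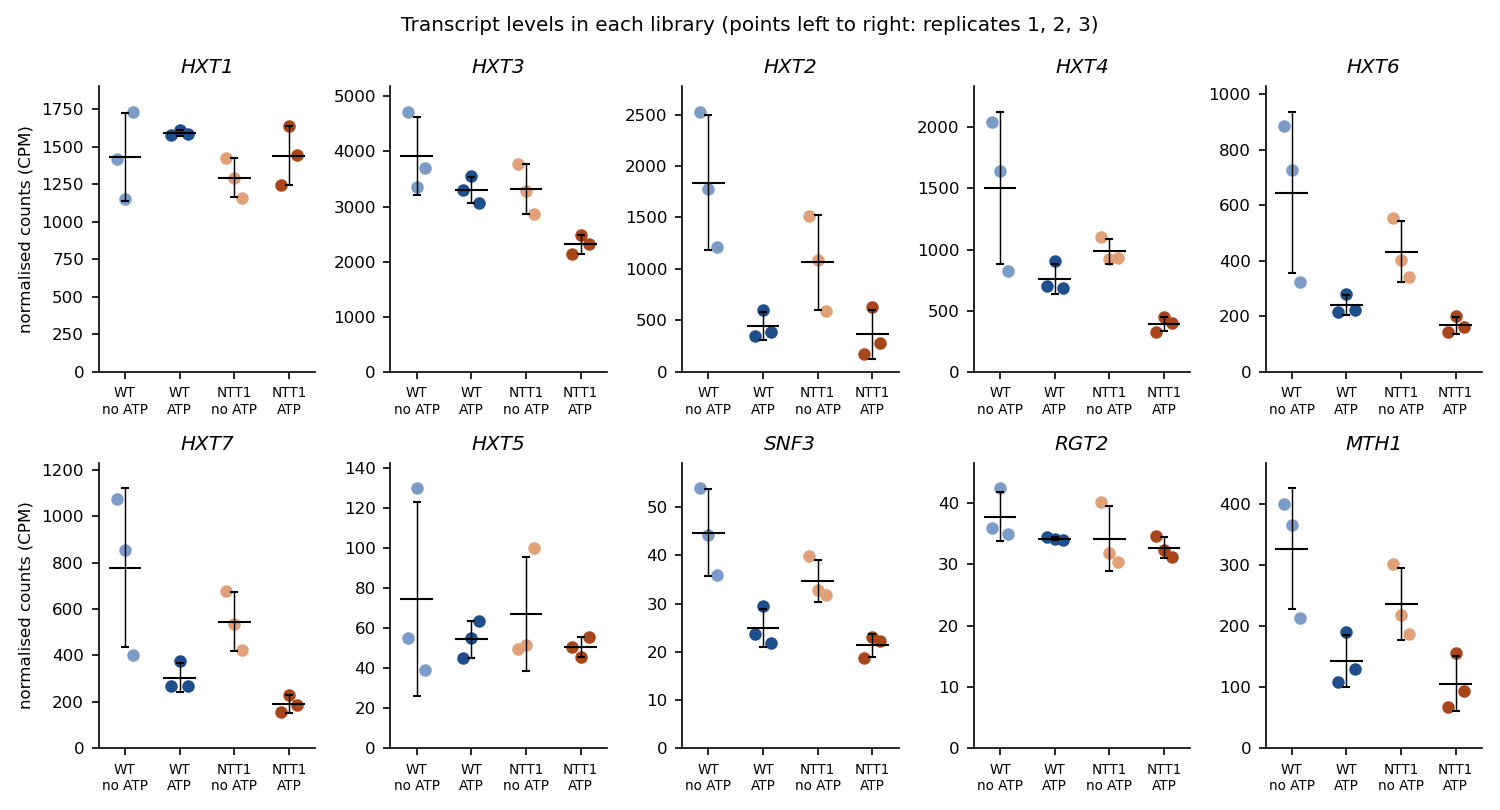
Transcript level of each of the 10 genes in every library, as TMM-normalised CPM on linear axes that start at 0. Points are replicates 1 to 3 from left to right, horizontal bars are group means and whiskers are 1 SD (n = 3), and all 6 treated libraries lie below all 6 untreated ones for HXT6, HXT7 and SNF3.

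Of the low-affinity carriers, HXT3 was the most abundant transcript of the family per length in every group. It stood at 2301 ± 417 RPKM in untreated wild type and HXT1 at 836 ± 170.2 RPKM (SD, n = 3). HXT1 read 1416, 1149 and 1732 CPM in untreated wild type and 1576, 1611 and 1584 CPM with ATP. In NTT1 it read 1424, 1294 and 1161 CPM without and 1246, 1636 and 1442 CPM with ATP. The groups overlapped in both strains, and the averaged log2 fold change was 0.15 (SE 0.10, 95% interval -0.07 to 0.37, adjusted p 0.292). Without untreated wild-type replicate 3, where HXT1 was highest of that group, the averaged change was 0.23 (adjusted p 0.0496). That fit called 39.9% of all genes. Of the 12 fits without 1 library it was the only 1 to call HXT1, and the adjusted p reached 0.525 in the others.

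HXT3, the carrier used over the widest range of glucose, read 4717, 3353 and 3691 CPM in untreated wild type and 3296, 3546 and 3066 CPM with ATP. In NTT1 it read 3779, 3287 and 2872 CPM without and 2147, 2491 and 2316 CPM with ATP. Groups overlapped in wild type and were apart in NTT1. Its log2 change was -0.25 (SE 0.14, adjusted p 0.247) in wild type, -0.52 (SE 0.14, adjusted p 0.0569) in NTT1 and -0.38 (SE 0.10, adjusted p 0.0157) averaged. The value in NTT1 passed with upper-quartile scaling (adjusted p 0.0455). It also passed in 4 of the 12 fits without 1 library, with adjusted p up to 0.201 over the 12.

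HXT2 changed most of the 10. It read 2525, 1776 and 1214 CPM in untreated wild type against 350.3, 602 and 388 CPM with ATP, so the groups were apart. In NTT1 it read 1514, 1089 and 588 CPM without and 175, 632 and 283 CPM with ATP, and treated replicate 2 lay above the lowest untreated culture. The log2 fold change was -2.04 (SE 0.48, adjusted p 0.0270) in wild type, -1.55 (SE 0.48, adjusted p 0.0925) in NTT1 and -1.79 (SE 0.34, adjusted p 0.00455) averaged. Without treated replicate 2 of NTT1 the change in that strain was -2.22 (adjusted p 0.0344). Over the 12 fits without 1 library it ran from -2.22 to -1.21, with adjusted p up to 0.256, and passed in 2. In both strains treated replicate 2 was the highest of its group for HXT1, HXT2, HXT3, HXT4, HXT6, HXT7, SNF3 and MTH1. This did not hold for HXT5 and RGT2. These treated replicates were also the deepest libraries of all 12, and the part of depth in this was not tested.

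HXT4 read 2046, 1641 and 825 CPM in untreated wild type and 699, 903 and 683 CPM with ATP. The overlap came from untreated replicate 3, and the log2 fold change was -0.98 (SE 0.26, adjusted p 0.0370) with it and -1.28 (adjusted p 0.000158) without it. In NTT1 the values were 1105, 921 and 928 CPM without and 326, 446 and 402 CPM with ATP, apart from each other. HXT4 changed there by -1.33 on the log2 scale (SE 0.27, adjusted p 0.0203). The averaged change was -1.16 (SE 0.19, adjusted p 0.00220).

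The high-affinity copies moved side by side. HXT7 read 1073, 856 and 403 CPM in untreated wild type and 268, 376 and 269.7 CPM with ATP, and in NTT1 676, 535 and 423 CPM without and 156, 230.0 and 188 CPM with ATP. HXT6 read 887, 727 and 323 CPM in untreated wild type and 215, 281 and 224 CPM with ATP, and in NTT1 554, 402 and 343 CPM without and 142, 199 and 161 CPM with ATP. For each copy all 6 treated cultures were below all 6 untreated ones, as was SNF3 and 5.26% of all genes. The opposite, all 6 above, held for 0 of the 10 and for 5.52% of all genes. Summed into 1 row, HXT6 plus HXT7 changed by -1.39 (SE 0.31, adjusted p 0.0228) in wild type, -1.45 (SE 0.31, adjusted p 0.0280) in NTT1 and -1.42 (SE 0.22, adjusted p 0.00187) averaged, all on the log2 scale. The ratio of HXT7 to HXT6 counts stayed between 1.1 and 1.34 over the 12 libraries, and how far the counting sets this ratio was not tested.

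HXT5, the carrier of slow growth, was rare among the transporters, at 41.9 ± 27.2 RPKM in untreated wild type. It read 54.9, 129.7 and 38.9 CPM there and 45.0, 55.2 and 63.4 CPM with ATP. In NTT1 it read 49.5, 51.7 and 99.8 CPM without and 50.4, 45.7 and 55.5 CPM with ATP. A single untreated culture of each strain was high, replicate 2 in wild type and replicate 3 in NTT1, and the rest overlapped. The averaged log2 fold change was -0.43 (SE 0.28, 95% interval -1.04 to 0.18, adjusted p 0.284). In wild type the sign turned without that replicate 2, from -0.45 to 0.22.

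The sensor genes differed from each other. SNF3 read 53.8, 44.3 and 35.9 CPM in untreated wild type and 23.8, 29.4 and 21.8 CPM with ATP. In NTT1 it read 39.8, 32.8 and 31.7 CPM without and 18.6, 23.0 and 22.3 CPM with ATP. Groups were apart in both strains, and the log2 fold change was -0.83 (SE 0.16, adjusted p 0.0132) in wild type, -0.70 (SE 0.16, adjusted p 0.0357) in NTT1 and -0.77 (SE 0.11, adjusted p 0.00153) averaged, the smallest p of the 10. RGT2 read 36.0, 42.3 and 34.9 CPM in untreated wild type and 34.4, 34.1 and 34.0 CPM with ATP, and in NTT1 40.2, 31.9 and 30.3 CPM without and 34.5, 32.3 and 31.2 CPM with ATP. Its averaged log2 fold change was -0.10 (SE 0.08, 95% interval -0.27 to 0.06, adjusted p 0.350), so the interval ends short of the SNF3 estimate. Per length, SNF3 and RGT2 stood at 16.8 ± 3.39 and 16.5 ± 1.76 RPKM in untreated wild type, and at 9.41 ± 1.5 and 14.9 ± 0.101 RPKM with ATP.

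MTH1, the co-repressor that glucose signalling removes, followed the low-glucose carriers. It read 400.3, 366 and 214 CPM in untreated wild type and 109, 190.4 and 130.2 CPM with ATP. In NTT1 it read 302, 219 and 188 CPM without and 67.7, 156 and 93.7 CPM with ATP, and the groups were apart in both strains. The log2 fold change was -1.19 (SE 0.33, adjusted p 0.0413) in wild type, -1.16 (SE 0.33, adjusted p 0.0759) in NTT1 and -1.17 (SE 0.24, adjusted p 0.00603) averaged.

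**Figure D2:**
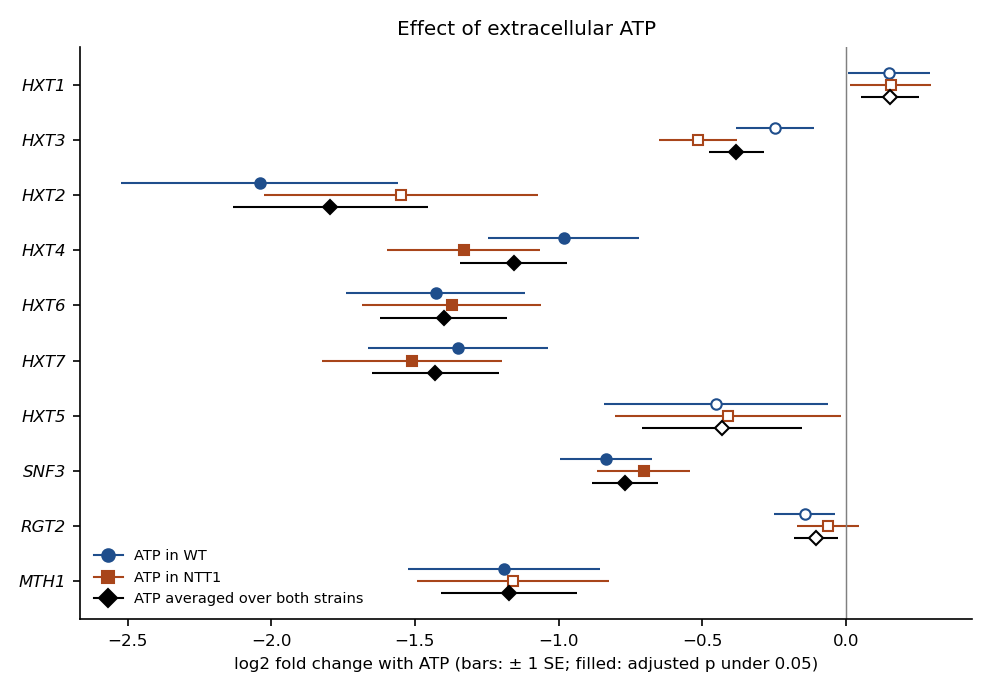
Fitted log2 fold change with ATP for each gene in wild type (circles), in NTT1 (squares) and averaged over both strains (diamonds), with bars of 1 SE and filled symbols where the adjusted p was under 0.05. HXT2, HXT4, HXT6, HXT7, SNF3 and MTH1 lie left of 0 by at least 0.70 in each strain, whereas HXT1 and RGT2 lie within 0.16 of it.

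Within a strain, 6 of the 10 genes had treated cultures wholly below untreated ones in wild type, where this held for 13.7% of all genes, and 6 of 10 in NTT1, where it held for 17.7%. None of the 10 lay wholly above, against 13.4% of all genes in wild type and 18.5% in NTT1. The 6 were not the same: RGT2 and HXT2 were among them in wild type alone, HXT3 and HXT4 in NTT1 alone. Such a gap is not a call, and RGT2 was not called.

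The make-up of the transporter pool shifted with these changes. Per coding length, HXT1 to HXT7 summed to 6009 ± 1360 RPKM in untreated and 3929 ± 348 RPKM in treated wild type, and to 4530 ± 802 and 2889 ± 430 RPKM in NTT1 (SD, n = 3). HXT1 plus HXT3 made up 47.9%, 46.5% and 65.6% of that sum in untreated wild type and 75.5%, 69.8% and 74.0% with ATP. In NTT1 they made up 56.8%, 60.2% and 62.8% without and 79.97%, 72.4% and 77.4% with ATP. In both strains every treated culture had a higher share of low-affinity transcripts than every untreated one. HXT2, HXT4, HXT6 and HXT7 together went from 46.0% ± 10.4 to 26.1% ± 2.97 in wild type and from 39.2% ± 3.46 to 22.4% ± 4.07 in NTT1. Since the counting of HXT6 and HXT7 is uncertain, the share of HXT1 plus HXT3 was also taken of HXT1 to HXT5 alone, and it went from 61.3% ± 9.15 to 79.5% ± 2.58 in wild type and from 68.5% ± 2.81 to 82.5% ± 3.95 in NTT1. These shares are given as description, without a test. In the order of levels per length in untreated wild type, HXT3 led, followed by HXT2, HXT4 and HXT1, whose ranges over libraries overlapped, then by HXT7 and HXT6, which overlapped each other and HXT4, and by HXT5. With ATP the order was HXT3, HXT1, HXT4, HXT2, HXT7, HXT6 and HXT5 in wild type, and there HXT1 lay clear of its neighbours on both sides.

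**Figure D3:**
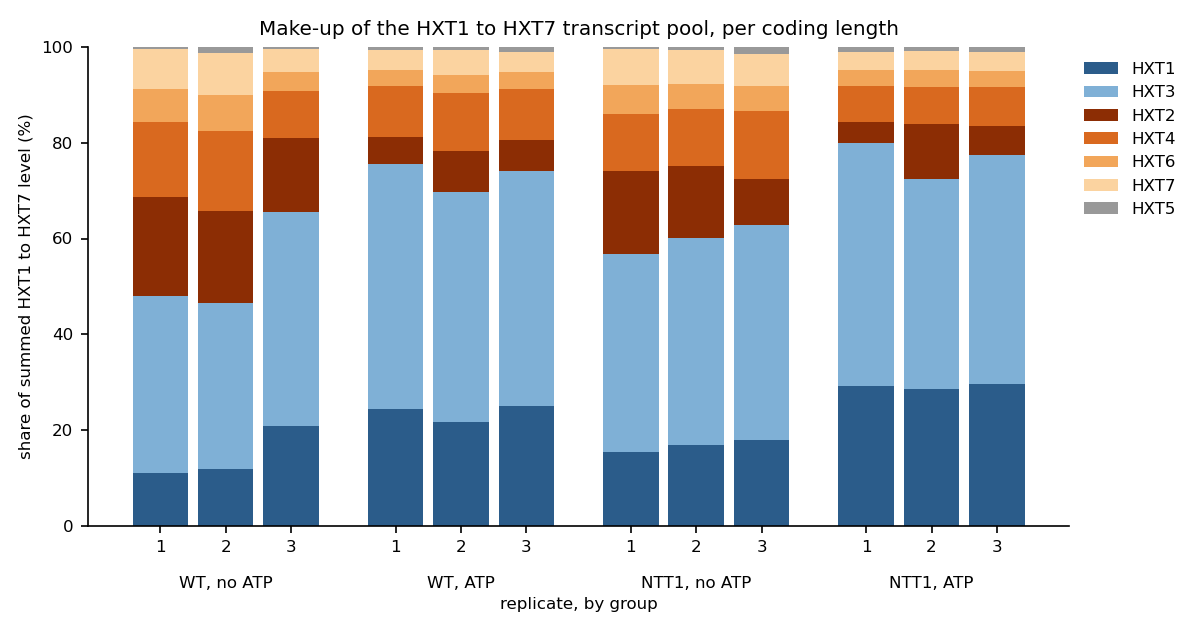
Share in percent of each transporter in the summed HXT1 to HXT7 level per coding length, 1 bar per library, grouped by strain and treatment. Blue segments (HXT1 and HXT3) fill 46.5% to 65.6% of the bars of untreated cultures and 69.8% to 79.97% of those of treated cultures.

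The strains were then compared at equal treatment. None of the 10 genes was called, although all 10 fitted log2 fold changes of NTT1 against wild type were below 0 in both treatments. Without ATP they ran from -0.79 for HXT2 to -0.14 for RGT2, with a median of -0.42, and with ATP from -0.96 for HXT4 to -0.06 for RGT2, with a median of -0.37. Members of a co-regulated family are not independent, so the shared sign is a description. An unadjusted p under 0.05 was found for 2 of the 10 in each treatment and for 5 averaged over treatments. Over all 6157 genes tested it was found for 597 without ATP, 278 with ATP and 488 averaged. At the adjusted threshold, 0.0487%, 0.065% and 0.13% of all genes were called in these comparisons. The lower and higher calls were 0.0162% and 0.0325% of genes without ATP, 0.0487% and 0.0162% with ATP, and 0.065% each averaged. With ATP, HXT3, HXT4, HXT6 and HXT7 were lower in all 3 NTT1 cultures than in all 3 wild-type cultures, as were 7.97% of all genes, and none of the 10 was wholly higher (8.2% of all genes). Without ATP none of the 10 was wholly lower or higher (5.13% and 4.27% of all genes). HXT4 averaged over treatments differed by -0.79 (SE 0.19, adjusted p 0.267) and HXT3 by -0.38 (SE 0.10, adjusted p 0.289). By the DESeq2 Wald test both passed, with an adjusted p of 0.00752 and 0.0335, beside 0.763% of all genes. Within a treatment that test called 0 of the 10, and 0.666% of all genes without ATP and 0.195% with ATP. Without untreated wild-type replicate 3, edgeR called 3 of the 10 lower in NTT1 without ATP, namely HXT4 at -0.90 (adjusted p 0.00687), HXT6 at -0.90 (adjusted p 0.0200) and HXT7 at -0.82 (adjusted p 0.0385), beside 9.74% of all genes. The same fit called HXT4 with ATP (adjusted p 0.0494), beside 0.0971% of all genes. Averaged over treatments it called HXT4 (adjusted p 0.00246), HXT6 (0.0174), HXT7 (0.0185) and HXT3 (0.0489), beside 5.36% of all genes.

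The interaction term compared the ATP effect of NTT1 with that of wild type. None of the 10 differed, with adjusted p from 0.961 to 0.998 and 0 unadjusted p under 0.05. By edgeR 0% of all genes were called, 365 had an unadjusted p under 0.05, and DESeq2 called 6 genes, none of them among the 10. Without untreated wild-type replicate 3, edgeR called 106 genes (1.71%) and 0 of the 10. The difference in log2 fold change, NTT1 minus wild type, was 0.06 for HXT6 (95% interval -0.90 to 1.01) and 0.49 for HXT2 (-0.95 to 1.94), so these intervals hold differences of 1.01 log2 units and more. The closest limits were those of RGT2 (-0.25 to 0.41) and HXT1 (-0.44 to 0.45).

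The wider pathway gave a more mixed picture. Among 11 further transporter genes of the family, 9 were tested, and HXT14 and HXT16 were not, with at most 13 counts per library. With ATP averaged over strains, 2 of the 9 fell and 0 rose, with a median log2 fold change of -0.17, where 12.4% of all genes fell and 11.7% rose. The averaged call of HXT13 was kept in 6 of the 12 fits without 1 library, with an adjusted p of up to 0.0669, and that of HXT17 in all 12. Averaged over strains, HXT17 fell by 0.75 on the log2 scale (SE 0.16, adjusted p 0.00746). It changed by -1.29 in wild type (adjusted p 0.0104) and by -0.21 in NTT1 (adjusted p 0.634). Its level was low, at 9.19 to 11.9 CPM in untreated wild type and 3.89 to 4.76 CPM with ATP. In NTT1 its treated range of 3.11 to 6.06 CPM overlapped the untreated range of 4.69 to 6.39 CPM. In wild type HXT13 fell by 1.65 on the log2 scale (SE 0.41, adjusted p 0.0302), from 5.01 to 5.58 CPM to 1.53 to 1.98 CPM. That call was lost without untreated replicate 1 or 2 or any treated wild-type replicate, with an adjusted p of up to 0.0991. In NTT1 HXT13 changed by -0.52 (SE 0.44, adjusted p 0.519), and its groups overlapped. HXT13 and HXT17 belong to a subgroup of near-identical genes, and reads may be split among its members.

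Of 21 other genes of glucose sensing, repression, phosphorylation and transporter turnover, 5 rose and 7 fell with ATP averaged over strains, a median log2 fold change of -0.11, where 11.7% of all genes rose and 12.4% fell. Of these 12 calls, 5 were lost in most fits without 1 library: MIG2 and HXK1 were kept in 3 of 12, CYC8 and RSP5 in 2 and CSR2 in 1. HXK1, CYC8, RSP5 and CSR2 are named because of this, after their values were seen. TUP1, a general co-repressor that Rgt1 and Mig1 recruit, rose by 0.90 on the log2 scale (SE 0.15, adjusted p 0.00282), and its range went from 58.8 to 70.9 CPM to 76.7 to 154 CPM in wild type and from 43.6 to 60.2 to 86.9 to 109 CPM in NTT1. YCK1, a membrane casein kinase that phosphorylates Mth1 and Std1, rose by 0.50 averaged over strains (SE 0.06, adjusted p 0.000868). It rose by 0.74 in NTT1 (adjusted p 0.00249) and did not pass in wild type, at 0.26 (adjusted p 0.0829). The ranges went from 147 to 159 CPM to 174 to 189 CPM in wild type and from 108 to 139 to 193 to 220.0 CPM in NTT1. Treated and untreated cultures were apart for both genes in both strains.

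ROG3 and ROD1 encode related arrestins that guide transporters into endocytosis, and they moved in opposite directions. ROG3 rose by 0.70 (SE 0.15, adjusted p 0.00881) and ROD1 fell by 0.58 (SE 0.09, adjusted p 0.00225). HXK2, the main hexokinase on glucose, fell by 0.32 (SE 0.07, adjusted p 0.00936), and MIG1 fell by 0.52 (SE 0.12, adjusted p 0.0120). GLK1, a glucokinase gene that is named after its values were seen, fell by 0.75 (adjusted p 0.0157). It passed in neither strain alone (adjusted p 0.0769 in wild type and 0.147 in NTT1). Nor did ROG3 (adjusted p 0.0852 and 0.0662) or MIG1 (0.0523 and 0.148). ROD1 and HXK2 passed in wild type (adjusted p 0.0170 and 0.0309) and not in NTT1 (0.0600 and 0.194). The averaged calls of ROG3, ROD1, HXK2, MIG1, GLK1, TUP1, YCK1 and HXT17 were kept in all 12 fits without 1 library.

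The partners of MTH1, STD1 and RGT1, were not called. STD1, the paralog of MTH1, changed by -0.11 (SE 0.06, adjusted p 0.223), and RGT1, the repressor they bind, by 0.27 (SE 0.12, adjusted p 0.117). MIG2, which encodes a repressor of MTH1, changed by 0.33 (SE 0.11, adjusted p 0.0452). That call was kept in 3 of the 12 fits without 1 library, with adjusted p from 0.0117 to 0.102 over the 12. It was lost without untreated wild-type replicate 1 or 2, treated wild-type replicate 2 or 3, any untreated NTT1 replicate, or treated NTT1 replicate 2 or 3.

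**Figure D4:**
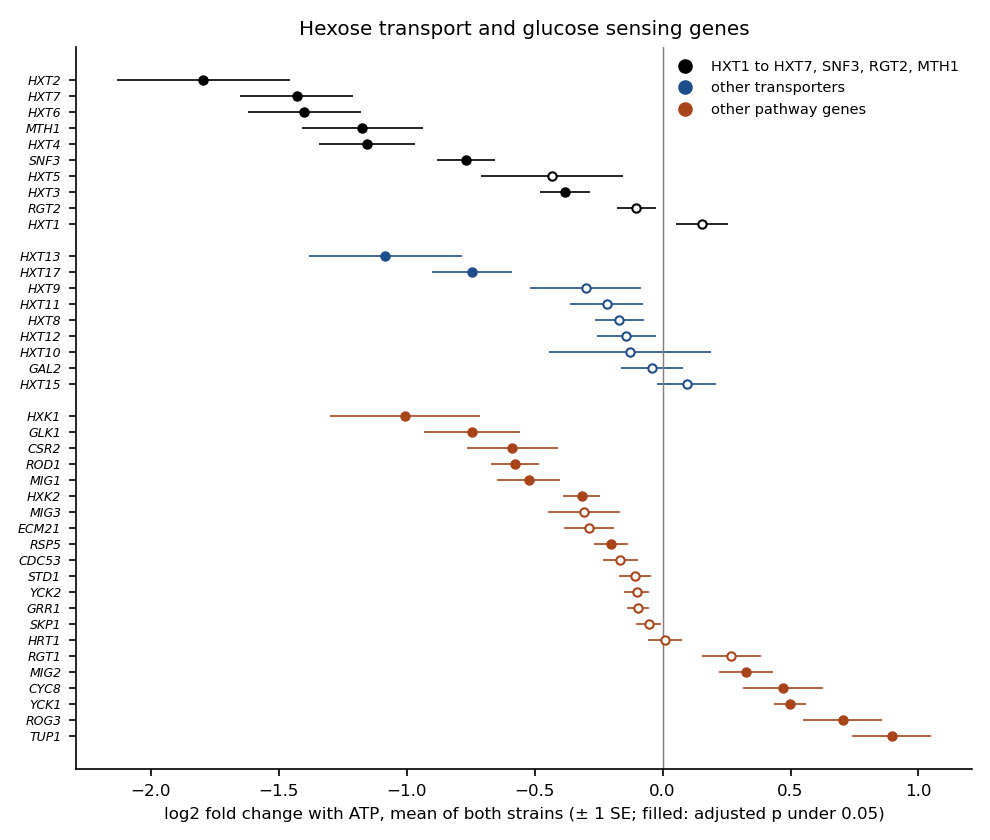
Fitted log2 fold change with ATP averaged over both strains, with bars of 1 SE, for the 10 genes (black), 9 other hexose transporter genes (blue) and 21 other pathway genes (red). Filled points have an adjusted p under 0.05, and the called values run from -1.79 for HXT2 to 0.90 for TUP1.

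SNF3, the gene of the 10 with the smallest p, was set against all genes outside these lists over the 12 libraries. The closest patterns were those of CIN5, a stress-related transcription factor, with a Pearson r of 0.98, MAL31, a maltose permease, with 0.98, and HAP4, an activator of respiratory genes, also with 0.98. These libraries share 2 treatment levels that separate SNF3, so a fall with ATP in both strains by itself raises r. How much of r comes from this was not tested, and the values are given as description.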

How the data were processed

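The authors deposited raw read counts per gene, 1 column per library, whose values are whole numbers with totals that differ between libraries. Reads were aligned with HISAT2 2.0.5 and counted with featureCounts 1.5.0 on R64, per the submitters' processing notes, which also name DESeq2 1.20.0. Strand setting and treatment of reads matching several places are not given in the sources used here. Each column was matched to its sample by the library name in the labels, and groups come from the sample titles. Names come from the RefSeq R64 table, by locus tag, for 6023 of 7127 features, and unmatched features held 0.282% of counts.

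Counts were tested with edgeR 4.0.16 (R 4.3.3), by the quasi-likelihood F-test after filterByExpr by group (6157 genes, 99.99% of counts) and TMM scaling, in 1 fit of 12 libraries with a mean per group and 7 contrasts, among them the mean ATP effect over strains. The Benjamini-Hochberg adjustment ran over all genes tested. SEs come from the fold change and F statistic, and 95% intervals from these with 11.2 degrees of freedom, both approximate. RPKM is CPM per kilobase of coding length. The fit was tested on simulated counts. Alternatives were DESeq2 1.42.0 (Wald test), other scalings, no filter, a replicate block, HXT6 and HXT7 summed, separate fits and leaving out each library. Replicates of a group differed by more than sampling noise, with a chi-square per degree of freedom of 6.58 or more.

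Genes named are the 10, and from 2 lists (11 other transporters, 21 other pathway genes) at most 4 called genes per direction and comparison by p, with MIG2, STD1 and RGT1 in any case, and the 3 genes most like the member with the smallest p. Members and lists were chosen with earlier results of these data known. Identity came from global alignment of coding sequences (Biopython 1.88), and motifs from exact letter searches. The Mig1 core matches upstream of HXT6 are not reported here.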

Additional observations from a re-analysis of the deposited data

How the results depend on the processing

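The number called among the 10 moved mainly with single libraries. Over the 12 fits without 1 library it ran from 0 to 6 for ATP in wild type and 0 to 7 in NTT1. Averaged over strains it was 7 to 8, where HXT1 was also called, as higher, without untreated wild-type replicate 3. For NTT1 against wild type it ran from 0 to 3 without ATP, 0 to 1 with ATP and 0 to 4 averaged. Shares called over all genes moved too: 1.44% to 33.7% for ATP in wild type, 1.12% to 16.7% in NTT1 and 16.5% to 39.9% averaged. For the strain comparisons they were 0.0323% to 9.74% without ATP, 0.0162% to 0.0971% with ATP and 0.0485% to 5.36% averaged. Fitting only the wild-type groups called 0 of the 10 (19 genes of all), with adjusted p from 0.0627 to 0.158 for the 6 called in the joint fit. Fitting only the NTT1 groups called 6 of the 10 (950 genes of all). The DESeq2 Wald test called 7 for ATP in NTT1 (9.6% of all genes) and 2 for the strains averaged over treatments (0.763%). The cause of these changes was not tested. Other scalings, no filter and the HXT6 plus HXT7 sum kept every such count within 1.5 times.

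Replicate numbers recur across groups, but over all genes tested same-numbered libraries did not deviate together (r from -0.44 to 0.31 over 18 pairs, 5 of them over 0.1). In that check 4 of 12 libraries correlated best with their own number. Some of the 10 genes did share an order, from highest to lowest, in both strains. Untreated, it was replicate 1, 2, 3 for HXT2, HXT6, HXT7, SNF3 and MTH1. With ATP it was 2, 3, 1 for HXT1, HXT2, HXT6, HXT7 and MTH1, and 1, 2, 3 for RGT2. The other genes kept no shared order, and a link between same-numbered cultures was not tested for the 10. A fit with the replicate number as a block called 6 of the 10 for ATP in wild type and 4 in NTT1. Averaged over strains it called 7, and these counts were the same without the block. Of all genes the block fit called 10.9%, 4.06% and 21.9% in these comparisons, against 12.7%, 4.47% and 24.2% without the block. The block turned 1 sign, that of the MTH1 difference in ATP effect (-0.017). Upper-quartile scaling turned that of HXT1 (-0.017).

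Signs also turned for small log2 values when 1 library was left out. HXT5 ran from -0.76 to 0.22 for ATP in wild type, and for NTT1 against wild type from -0.56 to 0.53 without ATP, -0.23 to 0.011 with ATP and -0.33 to 0.21 averaged. RGT2 ran from -0.14 to 0.072 for ATP in NTT1. HXT1 ran from -0.28 to 0.011 between the strains without ATP, and HXT2 from -0.97 to 0.036 with ATP. For the difference in ATP effect the ranges were -0.15 to 0.13 for HXT1, -0.18 to 0.84 for HXT2, -0.64 to 0.45 for HXT5, -0.24 to 0.38 for HXT6, -0.46 to 0.15 for HXT7, -0.024 to 0.27 for SNF3, -0.018 to 0.22 for RGT2 and -0.37 to 0.29 for MTH1. The 3 cultures per group leave the strain comparisons and the interaction with wide intervals.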
